A study of Homo sapiens with 9 samples.

Results

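The genes described here are *CTCF* and 9 genes of the cohesin complex and its regulators, namely *SMC1A*, *SMC3*, *RAD21*, *STAG1*, *STAG2*, *NIPBL*, *WAPL*, *PDS5A* and *PDS5B*. They were chosen by name, as the insulator protein and the main subunits and regulators of the ring it works with, and each of the 10 was found among the 60660 genes of the count matrix. All 10 passed the filter on low counts, which left 17794 genes for testing. The counts came from RNA-seq of OVCAR3, a human epithelial ovarian cancer cell line, in 9 libraries, of which Control, CTCFL-OE and CTCFL-KD had 3 biological replicates each. CTCFL-OE cells had been transfected transiently with 2 µg of the plasmid pCpGfree-vitroHBORIS, which carries the open reading frame of *CTCFL*, and were harvested after 48 h. *CTCFL*, which the sample labels call BORIS, is a paralog of *CTCF* that is normally restricted to the germline. The labels give no treatment for Control cells, while the study's methods describe a LacZ plasmid at the same dose and time. CTCFL-KD cells had been treated with siRNAs against *CTCFL*, and their RNA came from earlier knockdown experiments. Effects of the knockdown and of a separate experiment with another way of transfection therefore cannot be told apart in any comparison with CTCFL-KD. Each replicate pooled 3 technical replicates, and all groups were of the same cell line.

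Cohesin is a ring of SMC1A, SMC3 and RAD21 that holds DNA strands together, with STAG1 or STAG2 bound to RAD21. NIPBL, with its partner MAU2, loads the ring and drives the extrusion of DNA loops, WAPL together with PDS5A or PDS5B opens it again, and CTCF bound to its motif halts the loop at the borders of chromatin domains. The same ring keeps sister chromatids together until anaphase. CTCFL shares the zinc fingers of CTCF and can occupy a subset of its sites, but differs from it in the N-terminus, the part of CTCF that contacts cohesin.

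The total counts per library lay between 14332622 and 24490080. *CTCFL* had 6 to 10 counts in a Control library, 34 to 72 in one of CTCFL-OE and 0 or 1 in one of CTCFL-KD, an order that follows the labels. Levels are in CPM, counts divided by library sizes after TMM scaling and expressed on a common depth. CTCFL-KD replicate 1 stood apart from the other libraries. Its TMM factor was 0.775, and long transcripts of low GC content had fewer counts in it. A trend with transcript length and GC content, fitted over the genes of each library, placed the 10 genes between -0.75 and -0.26 on the log2 scale in that library, and between -0.07 and 0.19 in the other 8. The calls in comparisons with CTCFL-KD are therefore also given without it. The mitochondrial share of the counts was 6.16% to 6.52% in the Control libraries, 7.40% to 14.9% in the CTCFL-OE libraries and 7.80% to 11.8% in the CTCFL-KD libraries, and its part in the results was not tested. All 10 markers of ovarian carcinoma epithelium were detected in every group. Their summed level ranged from 5514 to 5612 CPM over the Control libraries, from 4928 to 5206 CPM over those of CTCFL-OE and from 9409 to 15872 CPM over those of CTCFL-KD, which was not tested as a part of any result either. The markers did not all move one way, since 8 of them, led in CPM by *KRT8* and *KRT18*, had every CTCFL-KD library above every Control library, whereas *WT1* (37.7 to 54.0 CPM against 71.3 to 74.7 CPM) and *KRT7* (463 to 1076 CPM against 1422 to 1480 CPM) had every one below. The 7 fibroblast markers summed to at most 43.6 CPM in any library, with *COL1A2*, *COL3A1* and *DCN* at or under 3 counts in every Control and CTCFL-OE library. In CTCFL-KD, *COL1A2* had 156, 239 and 247 counts, or 14.1, 14.2 and 13.5 CPM, *COL3A1* had 8, 9 and 8 counts, *DCN* had at most 4 and *THY1* at most 3. *COL1A1*, the most abundant of the 7, had 26.1, 22.4 and 21.3 CPM in these libraries and 32.0, 30.9 and 26.4 CPM in those of Control, and so lay on the other side of Control from *COL1A2*. The part of these markers in the results was not tested. The 5 leukocyte markers summed to at most 1.72 CPM and the 3 endothelial markers to at most 10.3 CPM.

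The promoter sequences of 3 of the genes are shown because *SMC3*, a ring gene, and *WAPL*, the gene of the release factor, were called lower in CTCFL-KD in every fit, while the ring gene *SMC1A* was called lower in none, as described further on. Each stretch is the 250 bases before a RefSeq start, written 5′ to 3′ on the strand of the gene in GRCh38.p14. That of *SMC1A* lies at chrX:53422729-53422978 on the minus strand, that of *SMC3* at chr10:110567445-110567694 on the plus strand and that of *WAPL* at chr10:86521793-86522042 on the minus strand. Capitals mark the letters CCAAT, the box bound by NFY, or their reverse complement ATTGG.
SMC1A: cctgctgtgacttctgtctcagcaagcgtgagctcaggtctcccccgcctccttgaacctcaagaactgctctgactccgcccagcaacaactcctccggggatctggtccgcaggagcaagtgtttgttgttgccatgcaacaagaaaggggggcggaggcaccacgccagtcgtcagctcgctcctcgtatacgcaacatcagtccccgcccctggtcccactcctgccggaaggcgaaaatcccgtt
SMC3: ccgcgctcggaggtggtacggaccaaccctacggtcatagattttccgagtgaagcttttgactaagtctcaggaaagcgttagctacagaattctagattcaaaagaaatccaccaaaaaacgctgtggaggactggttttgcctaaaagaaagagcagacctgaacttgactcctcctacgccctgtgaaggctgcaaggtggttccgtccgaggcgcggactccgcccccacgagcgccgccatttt
WAPL: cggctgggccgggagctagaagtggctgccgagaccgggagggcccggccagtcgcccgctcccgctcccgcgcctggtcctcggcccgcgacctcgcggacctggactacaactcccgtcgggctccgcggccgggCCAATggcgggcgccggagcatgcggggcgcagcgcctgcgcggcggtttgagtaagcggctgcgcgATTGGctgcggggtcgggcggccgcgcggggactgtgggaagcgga
The GC content of these stretches was 60.4% for *SMC1A*, 52.8% for *SMC3* and 77.2% for *WAPL*. Another start of *SMC1A*, with its stretch at chrX:53422655-53422904, had 63.2%. *WAPL* held a CCAAT box on its own strand 113 bases before the start and another on the opposite strand 46 bases before it. In all, 9 of the 10 genes matched the table, with 12 stretches because some have several starts. *RAD21*, which was not called in CTCFL-KD in any fit either, had no entry. CCAAT on either strand was found in 6 of the 12 stretches, which belong to *STAG1*, *WAPL*, *PDS5A*, *PDS5B* and, with some but not all of its starts, *STAG2*, and in 32.0% of the 35116 promoters of the table. The ETS motif CCGGAAGTG was found in *NIPBL*, 14 bases before its start, and in 1.85% of all promoters. The core of the CTCF motif, searched on both strands as CCAC, any base, AG, any 2 bases and GGC, was in none of the 12 and in 0.513% of all promoters. Neither were the NRF1 and YY1 motifs, which 1.03% and 0.248% of all promoters held. These matches describe letters in a window and were not related to the counts by a test.

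In CTCFL-KD, 6 of the 10 genes were lower than in Control at an adjusted p under 0.05. These were *SMC3*, *STAG2*, *NIPBL*, *WAPL*, *PDS5A* and *PDS5B*, and none was higher. Over all genes tested, 38.2% passed this threshold, 16.8% of them as lower and 21.4% as higher, where each share is of the 17794 genes. Only *SMC3* was a DEG, with a log2 fold change beyond 1, as were 23.2% of all genes. For 9 of the 10, all but *SMC1A*, all CTCFL-KD libraries were under the lowest Control library, against 27.6% of all genes. Their median log2 fold change was -0.82, and that of all genes was 0.08. In bulk RNA, fewer cells of a kind and less RNA per cell cannot be told apart. Without CTCFL-KD replicate 1, 9 of the 10 passed, with *SMC1A* higher and 8 lower, and *RAD21* was the exception. In that fit 49.9% of all genes passed. The number was 5 without Control replicate 1 (all but *PDS5A* of the 6), 3 without Control replicate 2 (*SMC3*, *WAPL* and *PDS5A*), 2 without Control replicate 3 (*SMC3* and *WAPL*) and 4 by edgeR fitted to Control and CTCFL-KD only (*SMC3*, *WAPL*, *PDS5A* and *PDS5B*). Calls over all genes were also fewer in these fits, at 26.8%, 26.7% and 25.8% without Control replicates 1, 2 and 3 and at 36.8% in the fit to the 2 groups. Unless DESeq2 is named, the adjusted p of a log2 fold change is that of the quasi-likelihood test of edgeR, with Benjamini-Hochberg adjustment over all genes tested.

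**Figure D1:**
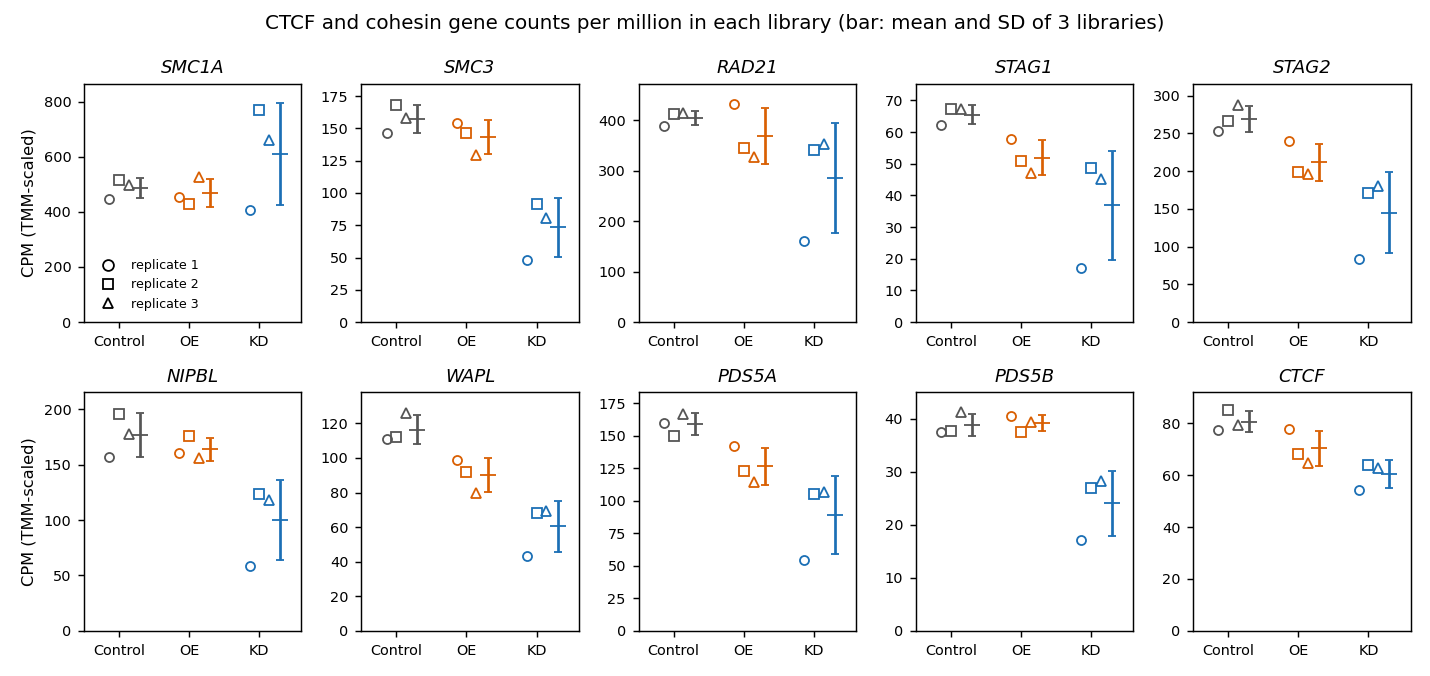
CPM (y axis, TMM-scaled, each panel from 0) of the 10 genes in each library of Control, CTCFL-OE (OE) and CTCFL-KD (KD). Symbols are libraries by replicate number and the bar beside them is the mean and SD of 3 libraries. CTCFL-KD replicate 1 is the lowest library in all 10 panels, and in 9 of them the 3 CTCFL-KD libraries sit below the 3 Control libraries.

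Of the ring genes, *SMC3* (chr10:110567684-110606048, plus strand, GENCODE release 44) encodes the subunit whose acetylation stabilises cohesin on DNA. *SMC3* had 146, 168 and 158 CPM in Control, 154, 147 and 129 CPM in CTCFL-OE and 47.8, 91.3 and 81.0 CPM in CTCFL-KD. The CTCFL-KD libraries were the 3 lowest, at 30.4%, 58.1% and 51.5% of the Control mean. The log2 fold change of *SMC3* in CTCFL-KD was -1.10 (standard error, SE, 0.23, adjusted p = 0.00388 by edgeR). Without CTCFL-KD replicate 1 it was -0.87, under the DEG threshold on the fold change but past that on the adjusted p. Across all 21 alternatives, the adjusted p of *SMC3* stayed at or under 0.0185 by edgeR or DESeq2. A processed pseudogene, *SMC3P1*, had at most 58 counts in a library.

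*SMC1A* (chrX:53374149-53422728, minus strand) encodes the partner of SMC3 in the hinge and head of the ring. *SMC1A* had 447, 515 and 499 CPM in Control, 452, 428 and 525 CPM in CTCFL-OE and 407, 768 and 659.9 CPM in CTCFL-KD. It was the only one of the 10 genes with CTCFL-KD libraries above all Control libraries, namely replicates 2 and 3, while replicate 1 lay below them. The log2 fold change of *SMC1A* in CTCFL-KD was 0.33 (SE 0.24, 95% interval -0.20 to 0.86, adjusted p = 0.301 by edgeR). Without CTCFL-KD replicate 1, *SMC1A* was higher than in Control by a log2 fold change of 0.55, with an adjusted p of 0.00864 from edgeR. With the length and GC trend removed from all 9 libraries, it was 0.24 (adjusted p = 0.296 by edgeR), and with both changes it was 0.36 (adjusted p = 0.0411 by edgeR). *SMC1A* passed in 2 of 21 alternatives, both without that library.

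*RAD21* (chr8:116845934-116874776, minus strand) encodes the kleisin subunit that closes the ring and is cut by separase at anaphase. *RAD21* had 388, 411 and 414 CPM in Control, 432, 346 and 328 CPM in CTCFL-OE and 161, 342 and 354 CPM in CTCFL-KD. All 3 CTCFL-KD libraries were under the Control range, but replicates 2 and 3 were at 84.5% and 87.4% of the Control mean, close to CTCFL-OE. Its log2 fold change in CTCFL-KD was -0.50 (SE 0.28, 95% interval -1.11 to 0.11, adjusted p = 0.174 by edgeR), and -0.21 without replicate 1 (adjusted p = 0.222 by edgeR). *RAD21* did not pass the threshold of CTCFL-KD in any of the 21 alternatives. Of its exon bases, 4.0% overlap *UTP23* on the opposite strand.

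*STAG2* (chrX:123960212-124422664, plus strand) and *STAG1* (chr3:136336236-136752403, minus strand) encode alternative SA subunits, one of which is bound to each ring. *STAG2* had 253, 267 and 288 CPM in Control, 240.2, 199 and 196 CPM in CTCFL-OE and 83.7, 171 and 180.4 CPM in CTCFL-KD. *STAG1* had 62.2, 67.3 and 67.3 CPM in Control, 57.8, 50.8 and 47.0 CPM in CTCFL-OE and 17.1, 48.6 and 45.1 CPM in CTCFL-KD. For both genes, Control held the 3 highest libraries. *STAG2* fell in CTCFL-KD, with a log2 fold change of -0.89 (SE 0.27, adjusted p = 0.0218 by edgeR), and one of -0.61 without replicate 1. The call of *STAG2* was lost without Control replicate 2 or 3, with adjusted p of 0.0568 and 0.0701 by edgeR. *STAG1* had one of -0.82 (SE 0.31, adjusted p = 0.0568 by edgeR), and without replicate 1 it was -0.48 with an adjusted p of 0.00596 from edgeR. With the replicate number as a block, *STAG1* passed (adjusted p = 0.0492 by edgeR). *STAG1* shares 21.2% of its exon bases with *PCCB* on the opposite strand. Since the strand setting of the counting is not given in the sources used here, reads of *PCCB*, which had up to 1641 counts, may be among those of *STAG1*, which had at least 190.

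*NIPBL* (chr5:36876769-37066413, plus strand), the gene of the loader, had 157, 196 and 177 CPM in Control, 160.3, 176 and 156 CPM in CTCFL-OE and 59.0, 123 and 118 CPM in CTCFL-KD. The CTCFL-OE libraries lay in or just under the Control range, and the CTCFL-KD libraries below both. *NIPBL* fell in CTCFL-KD with a log2 fold change of -0.82 (SE 0.26, adjusted p = 0.0272 by edgeR), and of -0.55 without replicate 1. Without Control replicate 2 or 3, the adjusted p of *NIPBL* was 0.0907 or 0.0700 by edgeR, which is no call. Its partner gene *MAU2* had 32.2, 32.2 and 29.3 CPM in Control, 29.0, 31.4 and 33.1 CPM in CTCFL-OE and 30.8, 37.4 and 36.4 CPM in CTCFL-KD, with a log2 fold change of 0.16 in CTCFL-KD that did not pass. The difference between the changes of these partners is given by their ratio further on.

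*WAPL* (chr10:86435256-86521792, minus strand), the gene of the factor that opens the ring, had 111, 112 and 126 CPM in Control, 98.7, 92.2 and 79.6 CPM in CTCFL-OE and 43.5, 68.4 and 69.6 CPM in CTCFL-KD. Here the 3 groups did not overlap, with CTCFL-OE between Control and CTCFL-KD. *WAPL* fell in CTCFL-KD with a log2 fold change of -0.94 (SE 0.20, adjusted p = 0.00463 by edgeR), and of -0.75 without replicate 1. Together with *SMC3*, *WAPL* was one of the 2 genes of the 10 that passed in CTCFL-KD under all 21 alternatives.

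*PDS5A* (chr4:39822863-39977956, minus strand) and *PDS5B* (chr13:32586452-32778019, plus strand) encode related scaffold proteins that bind RAD21 and serve both the release and the acetylation of cohesin. *PDS5A* had 159.6, 149.8 and 167 CPM in Control, 142, 123 and 114 CPM in CTCFL-OE and 54.2, 105 and 107 CPM in CTCFL-KD. *PDS5B* had 37.5, 37.7 and 41.2 CPM in Control, 40.4, 37.5 and 39.4 CPM in CTCFL-OE and 17.0, 27.0 and 28.2 CPM in CTCFL-KD. The groups of *PDS5A* did not overlap and again had CTCFL-OE in the middle, whereas *PDS5B* in CTCFL-OE overlapped Control. Both fell in CTCFL-KD, *PDS5A* with a log2 fold change of -0.84 (SE 0.25, adjusted p = 0.0203 by edgeR) and *PDS5B* with one of -0.68 (SE 0.20, adjusted p = 0.0190 by edgeR). Without replicate 1, these were -0.58 for *PDS5A* and -0.49 for *PDS5B*. The call of *PDS5A* was lost without Control replicate 1 or 3 (adjusted p = 0.0559 and 0.0649 by edgeR), and that of *PDS5B* without Control replicate 2 or 3 (adjusted p = 0.0510 and 0.0706 by edgeR).

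*CTCF* (chr16:67562467-67639177, plus strand) had 77.4, 85.2 and 79.5 CPM in Control, 77.9, 68.2 and 64.8 CPM in CTCFL-OE and 54.2, 64.0 and 62.8 CPM in CTCFL-KD. The CTCFL-KD libraries were the 3 lowest and differed less among themselves than those of the other 9 genes, at 67.2%, 79.4% and 77.9% of the Control mean. Against Control, the log2 fold change of *CTCF* was -0.42 (SE 0.16, 95% interval -0.77 to -0.07), with an adjusted p of 0.0566 from edgeR. Without CTCFL-KD replicate 1 it was -0.34 (adjusted p = 0.0257 by edgeR), and with the replicate block it was -0.42 (adjusted p = 0.0872 by edgeR). *CTCF* passed the threshold in 7 of 21 alternatives. A noncoding gene on the opposite strand covers 13.1% of its exon bases and had no counts.

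**Figure D2:**
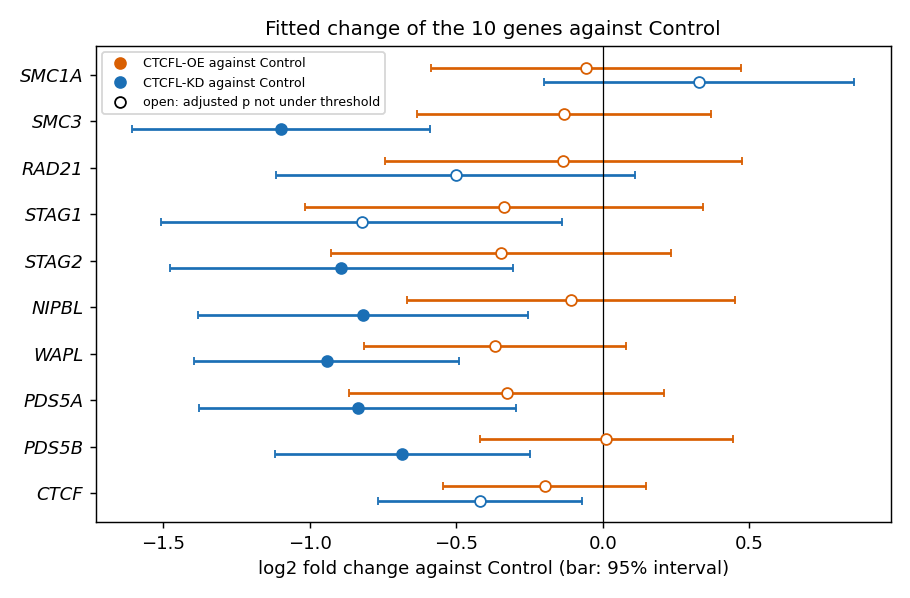
Fitted log2 fold change (x axis) of the 10 genes in CTCFL-OE and CTCFL-KD against the same Control libraries, with 95% intervals. Filled points passed the adjusted p threshold of their comparison, which is the case for 6 genes in CTCFL-KD and for none in CTCFL-OE.

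The transcripts of these genes are long, and most are poor in GC. Of the genes tested, between 73.5% and 96.1% had a shorter exon length, and the GC content was between 36.0% and 41.0% in 8 of the 10, 47.2% in *SMC1A* and 45.8% in *CTCF*. Over all genes, the median log2 fold change in CTCFL-KD was -0.29 in the quintile of lowest GC content and 0.37 in that of the highest. The fitted trend is a function of length and GC content alone. In CTCFL-KD replicate 1 it was smallest in absolute size for *SMC1A* (-0.26) and *CTCF* (-0.32), the 2 genes of the list with the highest GC content. These values thus are no separate observation on the counts of the 2 genes. When the trend was removed from each library, 8 of the 10 passed in CTCFL-KD, all lower, as did 42.7% of all genes in either direction. The log2 fold changes were then -0.86 for *SMC3*, -0.74 for *WAPL*, -0.70 for *PDS5A*, -0.65 for *STAG1*, -0.64 for *STAG2*, -0.63 for *NIPBL*, -0.41 for *CTCF*, -0.39 for *PDS5B* and -0.24 for *RAD21*. All were smaller in size than or, for *CTCF*, about equal to those without the removal.

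**Figure D3:**
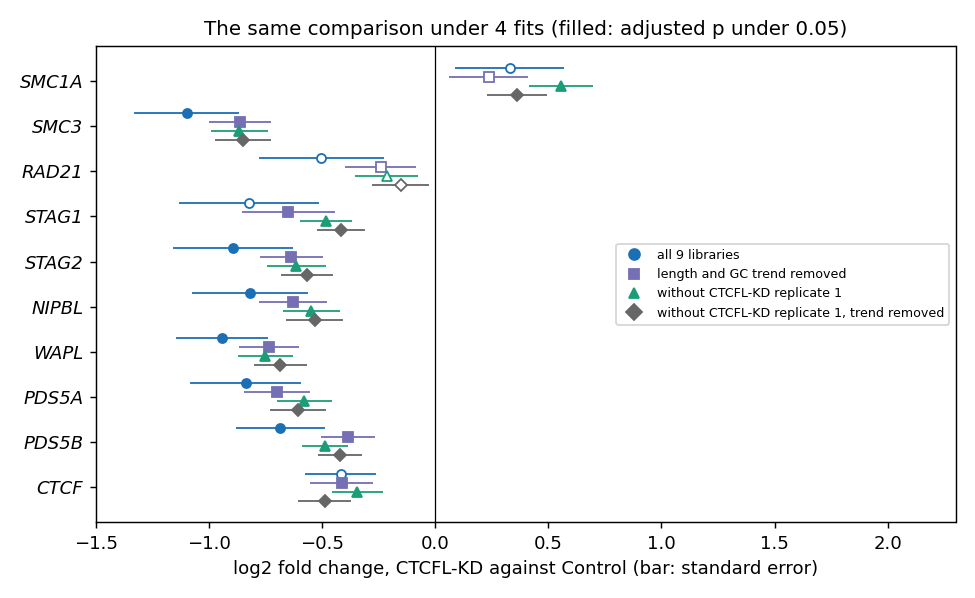
Log2 fold change in CTCFL-KD against Control (x axis, bars are standard errors) of the 10 genes in 4 fits, with all 9 libraries, with the length and GC trend removed, without CTCFL-KD replicate 1, and with both changes. Filled points had an adjusted p under 0.05. *SMC3*, *STAG2*, *NIPBL*, *WAPL*, *PDS5A* and *PDS5B* are filled in each fit, and *RAD21* in none.

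In CTCFL-OE, none of the 10 genes passed the threshold of this comparison, an adjusted p under 0.1, which 3.15% of all genes passed. None had an unadjusted p under 0.05 from edgeR either. The log2 fold changes were between -0.37 for *WAPL* and 0.01 for *PDS5B*, 9 of the 10 were negative, and their median was -0.17, against -0.01 for all genes. The lower bounds of their 95% intervals ran from -1.02 for *STAG1* to -0.42 for *PDS5B*, and the upper bounds from 0.08 for *WAPL* to 0.48 for *RAD21*. A change of 2-fold in either direction thus lay outside the interval for 9 of the 10. In *STAG1*, *STAG2*, *WAPL* and *PDS5A*, every CTCFL-OE library lay below every Control library, as it did for 20.8% of all genes. These 4 genes had log2 fold changes of -0.34, -0.35, -0.37 and -0.33. They passed when CTCFL-KD replicate 1 was left out of the common fit, where 27.4% of all genes passed, and by DESeq2 on the Control and CTCFL-OE libraries alone, where 22.0% did. By edgeR on those 6 libraries only *WAPL* passed, against 20.2% of all genes, and by DESeq2 on all 9 libraries none of the 10 did. Replicate 1 of CTCFL-OE, which had the lowest mitochondrial share of that group, was the highest CTCFL-OE library for 8 of the 10 genes.

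CTCFL-OE and CTCFL-KD were compared with the same Control libraries, so their fold changes are not independent of each other. In the direct comparison, *SMC3* and *PDS5B* were lower in CTCFL-KD than in CTCFL-OE at an adjusted p under 0.05. Of all genes, 26.8% passed, 11.5% as lower in CTCFL-KD. The log2 fold changes were -0.97 for *SMC3* (SE 0.23, adjusted p = 0.0108 by edgeR) and -0.70 for *PDS5B* (SE 0.20, adjusted p = 0.0245 by edgeR). *NIPBL* had -0.71 and *WAPL* -0.57, with adjusted p of 0.0614 and 0.0580 from edgeR, and passed in 8 and 6 of the 21 alternatives. For 7 of the 10 genes, the CTCFL-KD libraries all lay below those of CTCFL-OE, against 19.5% of all genes, and the median log2 fold change was -0.53, against 0.04 for all genes. Without CTCFL-KD replicate 1, 5 genes passed, against 39.7% of all genes. Their log2 fold changes were -0.73 for *SMC3*, -0.44 for *NIPBL*, -0.38 for *WAPL*, -0.50 for *PDS5B* and 0.61 for *SMC1A*. Without any one of the CTCFL-OE libraries, only *SMC3* passed, against 23.3%, 17.3% and 23.0% of all genes without replicates 1, 2 and 3.

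Ratios between genes of one complex, taken within each library, do not depend on the scaling of library sizes, but do depend on a trend with length and GC content where the genes differ in these. The ratio of *SMC1A* to *SMC3* counts was 3.06, 3.06 and 3.16 in the Control libraries, 2.93, 2.91 and 4.07 in those of CTCFL-OE and 8.52, 8.41 and 8.15 in those of CTCFL-KD. All 3 CTCFL-KD libraries lay above the other 6. The ratio in CTCFL-KD was 2.70-fold that of Control, a log2 difference of 1.43 (two-sided exact permutation p = 0.1, adjusted to 0.225 over 18 tests). With 3 libraries against 3, no smaller p than 0.1 can be reached. With the length and GC trend removed, the ratio was 6.28, 7.90 and 8.03 in CTCFL-KD and at most 4.04 elsewhere, and the log2 difference from Control was 1.09. The ratio of *RAD21* to *SMC3* was also higher in each CTCFL-KD library, at 3.36, 3.74 and 4.37 against 2.66, 2.45 and 2.62 in Control. The ratio of *NIPBL* to *MAU2* was 4.88, 6.08 and 6.06 in the Control libraries, 5.53, 5.59 and 4.71 in those of CTCFL-OE and 1.91, 3.29 and 3.25 in those of CTCFL-KD, a log2 difference of -1.05 between CTCFL-KD and Control with the same exact p. With the trend removed, this difference was -0.55, and the libraries of CTCFL-KD still lay below those of Control.

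The ratio of *STAG2* to *STAG1* was 4.07, 3.97 and 4.28 in the Control libraries, 4.15, 3.91 and 4.18 in those of CTCFL-OE and 4.88, 3.52 and 4.002 in those of CTCFL-KD, and the groups overlapped. The ratio of *PDS5B* to *PDS5A* was 0.235, 0.252 and 0.247 in the Control libraries, 0.284, 0.305 and 0.346 in those of CTCFL-OE and 0.314, 0.256 and 0.264 in those of CTCFL-KD. Both treated groups lay above Control, and in CTCFL-OE this was the ratio of the 6 that differed most. CTCFL-OE lay above by a log2 difference of 0.35 and CTCFL-KD by one of 0.18 (exact permutation p = 0.1 each, adjusted to 0.225). The ratio of *WAPL* to *NIPBL*, the release factor to the loader, ranged from 0.571 to 0.711 over Control, from 0.511 to 0.616 over CTCFL-OE and from 0.555 to 0.737 over CTCFL-KD, so that all groups overlapped.

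**Figure D4:**
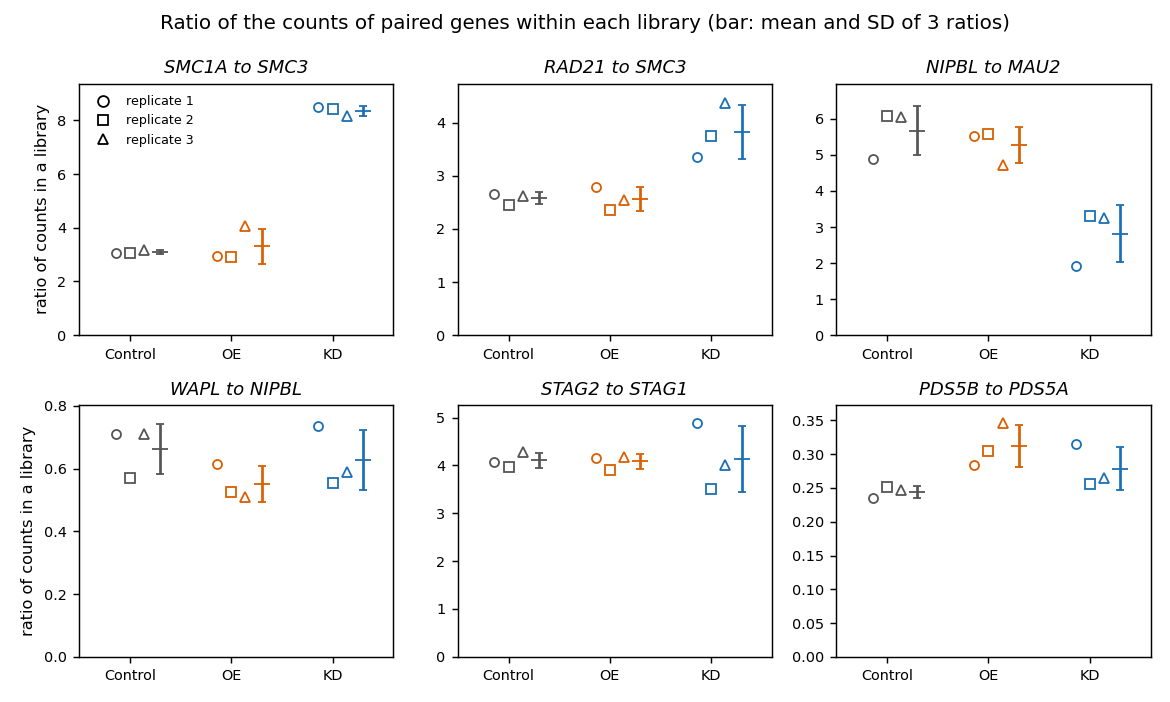
Ratio of the counts of paired genes within each library (y axis, each panel from 0), with symbols for the replicate number and bars for the mean and SD of 3 ratios. The ratio of *SMC1A* to *SMC3* is above 8 in the 3 CTCFL-KD libraries and at most 4.07 in the other 6, while that of *STAG2* to *STAG1* overlaps between all groups.

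Levels of different genes can be compared only per length, here as TPM, the share of a library corrected for length, over the union of the exons of each gene and as the mean ± SD of the 3 Control libraries. *SMC1A* had the highest level in Control, 136 ± 12.8 TPM, followed by *RAD21* with 85.3 ± 4.75 TPM. Next came *STAG2*, *WAPL*, *NIPBL* and *PDS5A*, with means of 51.0, 48.9, 42.8 and 39.4 TPM, where each range overlapped that of the neighbour in this group. Below them were *SMC3* with 30.8 ± 2.81 TPM, then *STAG1* and *CTCF*, which overlapped at 25.3 ± 1.66 and 24.2 ± 1.73 TPM. *PDS5B* was the lowest of the 10 at 8.91 ± 0.556 TPM, and it stayed the lowest with the length of the longest or of the canonical transcript. The order of the other genes depended on the length used. With canonical transcripts, *RAD21* came first at 219 TPM, ahead of *SMC1A* at 99.2 TPM, and *SMC3* with 56.3 TPM followed *STAG2* with 86.1 TPM.

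The 5 genes whose pattern over the 9 libraries was nearest to that of *CTCF*, by the root mean square difference of centred log2 CPM, were *THUMPD3*, *SETD3*, *ECD*, *MAPK8* and *CSNK2A2*, with differences between 0.049 and 0.054. Their log2 fold changes in CTCFL-KD, which the choice itself brings close to that of *CTCF*, were between -0.49 for *SETD3* and -0.36 for *ECD*. Of the 9 cohesin genes, *PDS5B* was the nearest to *CTCF*, with a difference of 0.258 and rank 2960 of 17793 genes, and *STAG1* the farthest, with 0.405 and rank 7148.

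Other genes of chromosome structure were described as lists. Of 51 genes, 48 were tested, and 22 of these passed in CTCFL-KD, 2 as higher and 20 as lower, with a median log2 fold change of -0.57. Of all genes, 38.2% passed, 21.4% as higher and 16.8% as lower, and the counts of the shorter lists below stand against the same shares. In the acetylation cycle, *ESCO2* (-0.94) and *ESCO1* (-0.70), the acetyltransferases of SMC3, fell, and the other 3 of 5 genes did not pass. Of 8 genes of mitotic removal and protection of cohesin, 3 fell, namely the kinase gene *PLK1* (-1.23) and the shugoshin genes *SGO2* (-0.83) and *SGO1* (-0.70). Of 7 genes of replication-coupled cohesion, *WDHD1* (-0.99), *DSCC1* (-0.71) and *TIPIN* (-0.69) fell. All values in parentheses are log2 fold changes in CTCFL-KD from edgeR, with adjusted p under 0.05.

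In condensin, the complex that compacts mitotic chromosomes, 4 of 8 genes fell, *NCAPG* (-1.09), *NCAPD2* (-0.84), *SMC2* (-0.77) and *NCAPH* (-0.57). The SMC5/6 complex, which acts in DNA repair, was mixed, with *NSMCE3* (1.24) higher and *SMC6* (-0.89) and *NSMCE2* (-0.60) lower among 6 genes tested. Of 6 factors that bind beside CTCF, *ZNF143* (-0.96) and *YY1* (-0.55) fell and *PATZ1* (0.91) rose. Of 6 proliferation genes, 4 fell, *TOP2A* (-1.23), *CCNB1* (-1.04), *CDK1* (-0.96) and *PCNA* (-0.81), and the part of proliferation in the levels of the cohesin genes was not tested. Of 4 meiotic cohesin genes, *STAG3* and *REC8* passed the filter on low counts, and neither was called. *SMC1B*, named after its values were seen, was under that filter, with 0, 1 and 3 counts in the Control libraries, 1, 2 and 1 in those of CTCFL-OE and 10, 10 and 5 in those of CTCFL-KD. No test of *SMC1B* is given, since it was picked by these counts. In CTCFL-OE, none of the 48 genes passed in the edgeR fit to all 9 libraries, where 4 had an unadjusted p under 0.05, and DESeq2 on all 9 libraries called 2. Of all genes, 3.15% passed in the former fit and 7.65% in the latter. Without CTCFL-KD replicate 1, 49 of the listed genes were tested, of which 32 passed in CTCFL-KD and 13 in CTCFL-OE, against 49.9% and 27.4% of all genes. All 22 genes named from the lists passed in CTCFL-KD in that fit too, in the same direction, with log2 fold changes from -1.37 for *PLK1* to -0.40 for *YY1* among the lower ones and of 0.76 for *PATZ1* and 1.07 for *NSMCE3*.

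**Figure D5:**
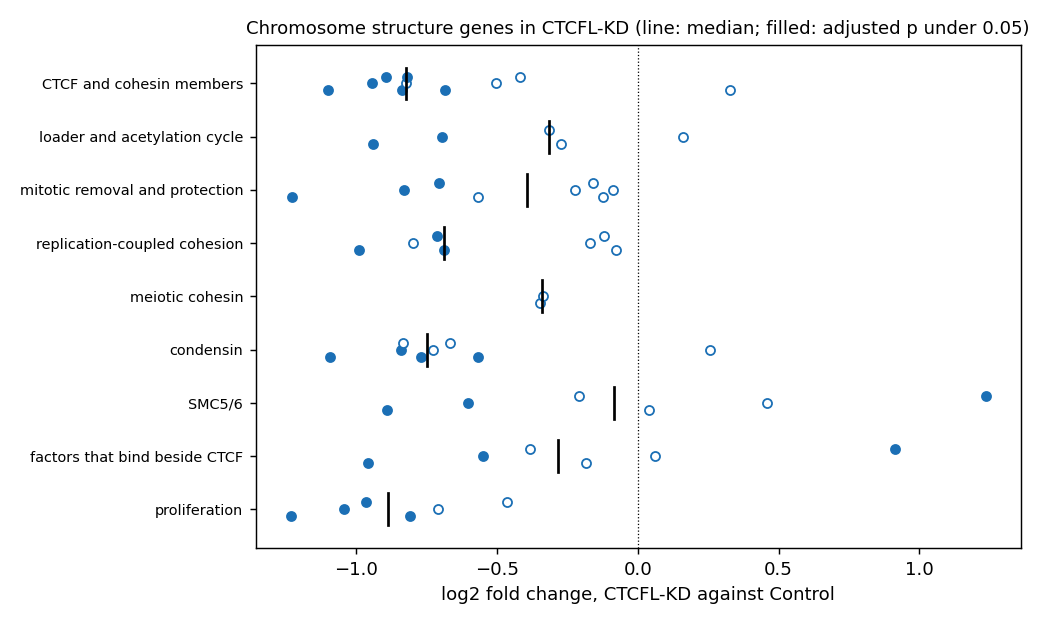
Log2 fold change in CTCFL-KD against Control (x axis) of the 10 *CTCF* and cohesin genes and of 8 lists of other chromosome structure genes (y axis). Points are genes, filled where the adjusted p was under 0.05, and the vertical line is the median of a list. The members have a median of -0.82, and *SMC1A* is the only one of them to the right of 0.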

How the data were processed

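RNA of 9 OVCAR3 samples was sequenced as stranded, paired-end mRNA libraries. Per the methods, the authors used STAR on GRCh38 after trimming, while their processing notes list Trimmomatic, kallisto and featureCounts, and they deposited raw read counts for each gene. How the counting treated strand and reads with several alignments, and which annotation it used, is not given in the sources used here. Library files and matrix were identical for all 9 libraries. Groups came from the sample labels.

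GENCODE release 44 gave the symbols of 60419 of 60660 identifiers, their lengths and their GC content, and RefSeq the promoter sequences. Counts were fitted with edgeR 4.0.16 in R 4.3.3 (filterByExpr, TMM, robust quasi-likelihood) over all 9 libraries with the group as the only factor, without a block. Adjusted p thresholds (0.1 in CTCFL-OE, 0.05 otherwise) and the DEG threshold (log2 fold change beyond 1) follow the study's methods, which used DESeq2. Alternatives were DESeq2 1.42.0, fits to only the 2 groups of a comparison, scaling by RLE or the upper quartile, other low-count filters, non-robust estimation, a replicate block, removal of a length and GC trend (a spline with 5 degrees of freedom in each library) and leaving out each library. Leaving out CTCFL-KD replicate 1 with the trend removed, and canonical transcript lengths, were added after seeing the data. Ratios were compared by exact permutation in Python 3.11.15 with scipy 1.17.1, pandas 2.3.3 and numpy 2.4.6, and plotted with matplotlib 3.10.9. Scripts were tested on simulated data.

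The members and lists were chosen with earlier results of these data known. Named were all 10 members, up to 4 called genes of each other list with the largest change, and the 5 genes nearest to *CTCF*. Further genes (*MAU2*, overlapping genes, markers) are named beside the result they touch. Same-numbered Control and CTCFL-KD libraries deviated together from their group means, with correlations of 0.180, 0.115 and 0.113 over 17794 genes, or 0.103, 0.088 and 0.072 with the trend removed, although the RNA of CTCFL-KD came from earlier experiments. All values given are from the fit without a block unless the block is named, and the blocked value stands beside a gene of the 10 where it changes a call in CTCFL-KD against Control. For CTCFL-OE and Control the correlations were -0.01, 0.15 and -0.05, or 0.018, 0.167 and -0.044 with the trend removed, and so differed in sign. Whether libraries were paired was not tested. A count of 0 allows up to 3 counts, and such limits cover counting error only.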

Additional observations from a re-analysis of the deposited data

How the results depend on the processing

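Of the 10 genes, *SMC3* and *WAPL* were called in CTCFL-KD against Control under all 21 alternatives, and the number called was 2 without Control replicate 3 and 3 without Control replicate 2, within a range of 2 to 9 over the fits that left out 1 library. With the replicate block it was 7, since *STAG1* joined the 6, and the block changed the call of no other of the 10 genes in that comparison. Of all genes, 36.9% were called with the block, 25.8% without Control replicate 3 and 26.7% without Control replicate 2. Over the fits that left out 1 library, the share was 25.8% to 49.9%. In CTCFL-OE against Control, 4 of the 10 were called by DESeq2 on the 2 groups, 1 by edgeR on the 2 groups, 1 without CTCFL-KD replicate 1 with the trend removed, and 0 to 4 with 1 library left out. In the same order, 22.0%, 20.2%, 26.8% and 0.240% to 27.4% of all genes were called. In CTCFL-KD against CTCFL-OE, 4 were called by DESeq2 on all 9 libraries, without a low-count filter and in the replicate block with the trend removed, 1 by DESeq2 or edgeR on the 2 groups, 6 with the trend removed, 7 also without CTCFL-KD replicate 1, and 1 to 5 with 1 library left out. The shares of all genes called in this comparison moved too, from 26.8% to 24.7% by DESeq2 on all 9 libraries, 16.1% without a filter, 33.7% in the block with the trend removed, 16.6% by DESeq2 and 15.5% by edgeR on the 2 groups, 33.9% with the trend removed and 41.6% also without CTCFL-KD replicate 1, and 17.3% to 39.7% with 1 library left out. Here the deviations of same-numbered libraries correlated at 0.0861 or less, or at 0.117, 0.167 and 0.036 with the trend removed. The replicate block called *NIPBL* (adjusted p = 0.0348 by edgeR) beside *SMC3* and *PDS5B*.

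Of the other listed genes, 48 were tested with all 9 libraries and 47 to 51 in the alternatives, so the counts below are not all over the same genes. Those called in CTCFL-OE were 2 by DESeq2 on all 9 libraries, 10 by DESeq2 or edgeR on the 2 groups, 1 without a filter, with the trend removed or in the block with the trend removed, 10 without CTCFL-KD replicate 1 with the trend removed, and 0 to 13 with 1 library left out. Of all genes, 7.65% were called by DESeq2 on all 9 libraries, and 22.0% by DESeq2 and 20.2% by edgeR on the 2 groups. The share was 4.01% without a filter, 7.86% with the trend removed and 7.54% in the block with it removed. It was 26.8% without CTCFL-KD replicate 1 with the trend removed, and 0.240% to 27.4% with 1 library left out. In CTCFL-KD against Control, 36 were called without CTCFL-KD replicate 1 with the trend removed, and 15 to 32 with 1 library left out. Of all genes, 51.3% were called in the former fit and 25.8% to 49.9% in the latter fits. Against CTCFL-OE, 8 were called by edgeR on the 2 groups, 30 with the trend removed, 27 in the block with it removed, 33 also without CTCFL-KD replicate 1, and 12 to 34 with 1 library left out. In the same order, 15.5%, 33.9%, 33.7%, 41.6% and 17.3% to 39.7% of all genes were called. The ratios without overlap between CTCFL-OE and Control numbered 1 to 2 with 1 library left out.

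Directions turned only in values near 0. With 1 library left out, the log2 fold change in CTCFL-OE against Control ranged from -0.15 to 0.0003 for *SMC1A* and from -0.0203 to 0.0515 for *PDS5B*. The log2 ratio ranged from -0.0325 to 0.0219 for *STAG2* to *STAG1*, from -0.0748 to 0.0501 for *RAD21* to *SMC3* and from -0.083 to 0.157 for *SMC1A* to *SMC3* in that comparison, and for *STAG2* to *STAG1* from -0.1293 to 0.1076 in CTCFL-KD against Control and from -0.1209 to 0.116 against CTCFL-OE. With the trend removed, the log2 ratios in CTCFL-OE were 0.0002 for *STAG2* to *STAG1*, 0.13 for *NIPBL* to *MAU2*, 0.0199 for *RAD21* to *SMC3* and -0.0581 for *SMC1A* to *SMC3*, and in CTCFL-KD 0.0748 for *STAG2* to *STAG1*. The cause of these changes was not tested. The 10 genes had at least 189 counts in each library. The share of counting error in their standard errors was not tested.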
